A study of Saccharomyces cerevisiae with 8 samples.

Results

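The mating genes of budding yeast described here, by the exact positions where their mRNAs began, are MFA1, MFA2, STE6, STE2, GPA1, STE4, BAR1, AGA1, AGA2 and ASG7. They were chosen by name as genes of the mating pheromone system that a MATa cell uses, and they are 10 of 6002 nuclear protein-coding genes. Each gene's 5′ region runs from 400 nt before the start codon, or from the end of a coding sequence met earlier on the same strand, to 50 nt inside the coding sequence. The 10 regions hold 1132 of the 1643818 positions with tags in the deposited table. All samples came from Saccharomyces cerevisiae BY4741 (MATa; his3delta1 leu2delta0 ura3delta0 met15delta0), cultured at 30 °C until mid-log phase in a rich medium (YPD in the sample labels, YPAD in the design text), and no pheromone treatment is named. For each of 2 biological replicates, 60 µg of total RNA first lost its uncapped 5′ phosphates to a phosphatase (CIP) and was then shared among 4 treatments: Decapping Pyrophosphohydrolase, Cap-Clip, TAP (tobacco acid pyrophosphatase) or no enzyme. All 3 enzymes remove the cap and leave a 5′ end that an oligonucleotide can be ligated to. A sequenced tag (5Cap-seq) is therefore meant to mark the first base of an mRNA. Some tags lay in gene bodies, 4.93% to 6.75% in the enzyme libraries and 79.2% and 24.0% with no enzyme. The series asks how the enzymes compare as tools for mapping transcription start sites.

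Haploid yeast cells of the a and α types find each other by secreted peptides. A MATa cell makes a-factor from the precursors MFA1 and MFA2, exports it through STE6, an ABC transporter, and senses α-factor with the receptor STE2. The receptor acts through a G protein whose α subunit is GPA1 and whose β subunit is STE4. BAR1 is a secreted protease that cleaves α-factor, AGA1 and AGA2 are the anchor and the binding subunit of the cell-surface a-agglutinin, and ASG7 is an a-specific gene whose product acts on STE4 signalling after mating. In yeast, RNA polymerase II starts at several positions downstream of a TATA box, mostly at a purine that follows a pyrimidine.

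The libraries differed widely in depth. Their totals were 1789278 and 3479399 tags for Decapping Pyrophosphohydrolase, 1268757 and 8475181 for Cap-Clip, 10739034 and 1747139 for TAP, and 736236 and 80721 for no enzyme. Between 90.1% and 92.7% of tags lay in 5′ regions of genes in the 6 enzyme libraries. The 2 no-enzyme libraries stood apart from each other, with 14.4% of tags in 5′ regions in replicate 1 and 73.0% in replicate 2. A single tag is worth 1.36 CPM (tags per 1000000 tags of the library) in no-enzyme replicate 1 and 12.4 CPM in replicate 2, and a count of 0 tags allows up to 4.07 and 37.2 CPM there. Counts of genes called against no enzyme are therefore given with and without replicate 2. Tags were counted by position from whole cultures, so fewer cells with a transcript and less transcript per cell cannot be told apart.

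The start sites come first as sequence, because they are what the assay measures. In each window of 30 bases the capital letter is the position with the most tags over the 3 enzymes, given 5′ to 3′ on the gene's strand (R64, sacCer3). The windows lie at chr4:1385133-1385162 (MFA1, plus strand), chr14:352353-352382 (MFA2, plus), chr11:46313-46342 (STE6, minus), chr6:82530-82559 (STE2, plus), chr8:114994-115023 (GPA1, minus), chr15:742770-742799 (STE4, plus), chr9:322290-322319 (BAR1, plus), chr14:703638-703667 (AGA1, plus), chr7:436878-436907 (AGA2, minus) and chr10:101780-101809 (ASG7, minus).
MFA1: ttctcggataaaaccaaaatAagtacaaag
MFA2: ttgacatcactagagacaccAgcgagctat
STE6: caagtgccgctgaaaattccActaggaaac
STE2: aattggttacttaaaaatgcAccgttaaga
GPA1: tttctaagaccaaactgagtAgaagctatt
STE4: tctcctttgtgccagaactcAaggtcaata
BAR1: gtatcgcctaaaatcataccAaaataaaaa
AGA1: gttcatctttgaaaaacggcGagcattaac
AGA2: tagaatgattgtaagctctcAacagtcact
ASG7: acaaaaattcaaagaatgacGacaagaaac
All 10 strongest sites were a purine directly after a pyrimidine. The strongest position and up to 4 further positions with at least 5% of a gene's tags gave 42 sites, of which 41 had this pyrimidine-purine pair. The exception was the A at chr15:742791 in STE4, which follows the A of the strongest STE4 site. The pair is common: over all genes 79.3% of the 27095 positions tested below for start-site usage had it. None of the 10 leaders from the strongest site to the start codon contained an ATG. Adenine made up between 35.2% of the leader (AGA2) and 60.0% (ASG7). Shares over the strongest sites and leaders of all genes are not given here.

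The 2 a-factor genes started differently. MFA1, with its start codon at chr4:1385176 on the plus strand, used 3 sites with leaders of 23, 28 and 19 nt, which took 30.9%, 27.4% and 27.4% of its tags and 85.7% together. The leader of MFA1 shows how close they lie; the 3 start sites are in capitals, and the start codon follows the last base (chr4:1385146-1385175, plus strand).
MFA1 leader: ccAaaatAagtAcaaagccatcgaatagaa
The site 23 nt before the MFA1 start codon had 844 and 1029 CPM with Decapping Pyrophosphohydrolase, 1049.8 and 1024 CPM with Cap-Clip, 827 and 952 CPM with TAP, and 73.3 and 743 CPM with no enzyme. The enzyme groups overlapped, and no-enzyme replicate 2 came close to the enzyme libraries while replicate 1 lay far under them. MFA2 (start codon chr14:352414, plus strand) had 1 leading site 41 nt from the start codon with 38.0% of tags, and 4 weaker sites at 44, 38, 50 and 62 nt with 6.46% to 12.0% each. That leading MFA2 site had 1385 and 1745 CPM with Decapping Pyrophosphohydrolase, 962 and 1120 CPM with Cap-Clip, 908 and 1038 CPM with TAP, and 50.3 and 1363 CPM with no enzyme. Both Decapping Pyrophosphohydrolase libraries were above all 4 other enzyme libraries at this site.

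STE6, the a-factor exporter (start codon chr11:46295, minus strand), started 27 nt before its start codon with 30.2% of tags and 46 nt before it with 19.7%. At 27 nt it had 3.35 and 5.17 CPM with Decapping Pyrophosphohydrolase, 9.46 and 13.2 CPM with Cap-Clip, 20.95 and 21.75 CPM with TAP, and no tag with no enzyme. The 3 enzyme groups did not overlap there, with TAP highest. The receptor gene STE2 (start codon chr6:82580, plus strand) spread over leaders of 30, 27 and 42 nt with 27.5%, 21.5% and 16.6% of its tags.

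The G protein genes had the longest leaders of the 10. GPA1 (start codon chr8:114917, minus strand) started 86 nt before the start codon with 40.8% of tags, and at 95 and 90 nt with 16.5% and 12.2%. STE4 (start codon chr15:742910, plus strand) started at 120 and 111 nt with 24.5% and 21.2%, and reached 162 nt with 5.05%. The 4 STE4 sites held 58.3% of its tags, the lowest share for the sites of any of the 10 genes, so its starts were the most dispersed by this measure.

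BAR1 (start codon chr9:322342, plus strand) led at 32 nt with 34.5% of tags and at 37 nt with 23.7%. AGA1 (start codon chr14:703699, plus strand) was the most focused, with 60.6% of its tags at 1 position 41 nt from the start codon. AGA2 (start codon chr7:436833, minus strand) followed, with 55.3% at 54 nt. ASG7 (start codon chr10:101779, minus strand) had the shortest leading leader, 10 nt with 22.1% of tags, and further sites at 28, 20, 7 and 13 nt. Its strongest site was not the same in all libraries. The leader was 7 and 20 nt with Decapping Pyrophosphohydrolase, 28 and 10 nt with Cap-Clip, and 10 nt in both TAP libraries. These ASG7 differences rest on few tags. Decapping Pyrophosphohydrolase replicate 1 had 9 of 36 tags at 7 nt, and Cap-Clip replicate 1 had 12 at 28 nt and 11 at 10 nt. The strongest site also differed for STE2 (27 nt) and STE6 (46 nt) in Decapping Pyrophosphohydrolase replicate 1. For STE4 it differed in replicate 2 of that enzyme (111 nt).

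**Figure D1:**
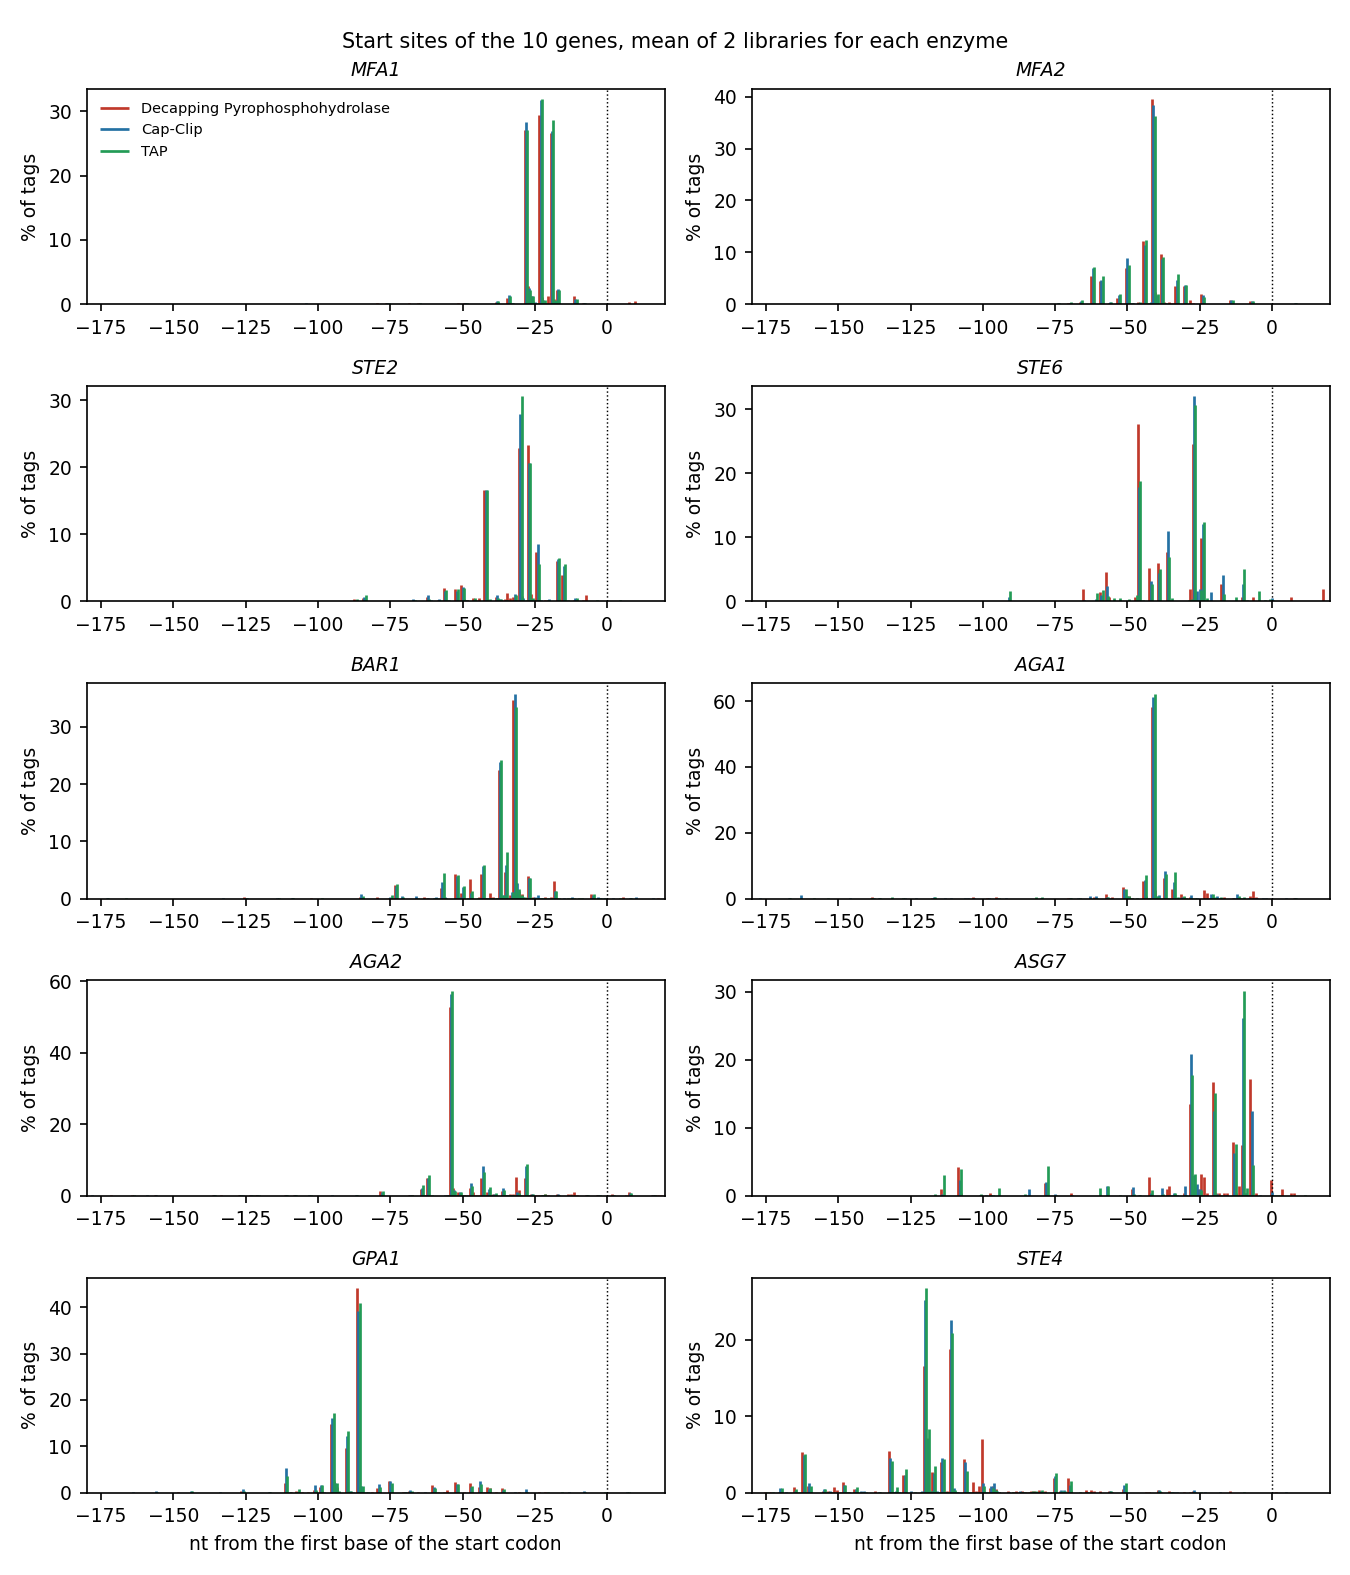
Start-site profiles of the 10 genes. Horizontal axes give the position from the start codon in nt (negative is upstream), vertical axes the mean share of the gene's tags at each position in percent, with 1 line per enzyme group and n = 2 libraries each. The leading peak of MFA1 at 23 nt, of AGA1 at 41 nt and of AGA2 at 54 nt coincides between Decapping Pyrophosphohydrolase, Cap-Clip and TAP.

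The median leader over a gene's upstream tags was the same in every enzyme library for 7 of the 10 genes. These were MFA1 (23 nt), MFA2 (41 nt), STE2 (30 nt), AGA1 (41 nt), AGA2 (54 nt), GPA1 (86 nt) and ASG7 (20 nt). BAR1 had median leaders of 32 and 35 nt with Decapping Pyrophosphohydrolase, 33 and 35 nt with Cap-Clip, and 35 nt in both libraries with TAP. STE4 had 117 and 114 nt with Decapping Pyrophosphohydrolase, 119 nt in both libraries with Cap-Clip, and 120 and 119 nt with TAP. STE6 had 42 and 36 nt with Decapping Pyrophosphohydrolase, from 26 and 69 tags, and 27 nt in all 4 Cap-Clip and TAP libraries. For STE4 and STE6 the Decapping Pyrophosphohydrolase libraries lay apart from the others, but 2 libraries against 2 cannot give an exact permutation p under 0.333, so these differences are given as values only.

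Promoters are shown for 3 genes whose start sites recur below, as the 200 bases before the strongest start site, with capitals for the motifs searched. The TATA box was searched as TATAAA and, in its other form, as TATATA. The pheromone response element, which the factor Ste12 binds, was searched as TGAAACA. The last motif was CATGTAA, part of the operator through which the α2 repressor silences a-specific genes in α cells. It was added after the sequences had been seen. Every motif was searched on both strands, the second form of the TATA box reads the same on both, and its 2 forms can overlap. The promoters lie at chr4:1384953-1385152 (MFA1, plus strand), chr14:352173-352372 (MFA2, plus strand) and chr7:436888-437087 (AGA2, minus strand).
MFA1 promoter: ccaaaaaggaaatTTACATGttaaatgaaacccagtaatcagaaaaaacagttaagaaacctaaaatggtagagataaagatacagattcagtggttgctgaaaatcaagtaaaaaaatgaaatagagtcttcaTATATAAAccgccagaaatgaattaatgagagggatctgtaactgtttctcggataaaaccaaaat
MFA2 promoter: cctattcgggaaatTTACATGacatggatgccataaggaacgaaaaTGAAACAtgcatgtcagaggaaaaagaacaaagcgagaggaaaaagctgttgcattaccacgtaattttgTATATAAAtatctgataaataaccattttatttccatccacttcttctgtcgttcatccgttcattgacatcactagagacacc
AGA2 promoter: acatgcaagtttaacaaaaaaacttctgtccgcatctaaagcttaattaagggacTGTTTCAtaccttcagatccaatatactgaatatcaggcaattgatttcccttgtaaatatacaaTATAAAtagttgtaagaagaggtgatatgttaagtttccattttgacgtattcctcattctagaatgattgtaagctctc
A TATA box in either form stood on the gene strand in 7 of the 10 promoters, against 41.6% of 5412 promoters of the same length. Its first base lay 66 nt before the strongest site in MFA1, 84 nt in MFA2, 77 nt in STE6, 102 nt in BAR1, 81 nt in AGA1, 80 nt in AGA2 and 79 nt in ASG7. TGAAACA stood on either strand in 7 promoters (MFA2, STE6, STE2, STE4, BAR1, AGA1 and AGA2), against 4.90% of all promoters. CATGTAA stood on either strand in 5 (MFA1, MFA2, STE6, STE2 and ASG7), against 3.09%. These are matches of letters and not measured sites.

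The 5′ regions spanned a wide range of levels. A tag marks the 5′ end of an RNA and not its length, so levels are in CPM and are not divided by length. By the mean over the 6 enzyme libraries, MFA2 (3138 CPM) and MFA1 (3087 CPM) ranked 56 and 57 among the 6002 genes, and AGA2 (705 CPM) ranked 214. STE4 (292 CPM), STE2 (272 CPM), GPA1 (159 CPM) and BAR1 (149 CPM) followed, and AGA1 (69.1 CPM), STE6 (40.8 CPM) and ASG7 (31.4 CPM) were lowest. Neighbours in this order overlapped between libraries, except that MFA1 lay wholly above AGA2, AGA2 above STE4, and STE2 above GPA1. The order of STE4 and STE2 depended on the enzyme: STE4 was under STE2 in both Decapping Pyrophosphohydrolase libraries and above it in all Cap-Clip and TAP libraries. Antisense tags were nearly absent from the 10 coding sequences, with 23 in the 6 enzyme libraries together and 3 in the no-enzyme libraries. Antisense tags upstream of the start codons were not counted. MFA1 and MFA2 both encode a-factor precursors, but their 5′ regions shared no identical run longer than 13 nt, shorter than the reads of 50 nt.

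**Figure D2:**
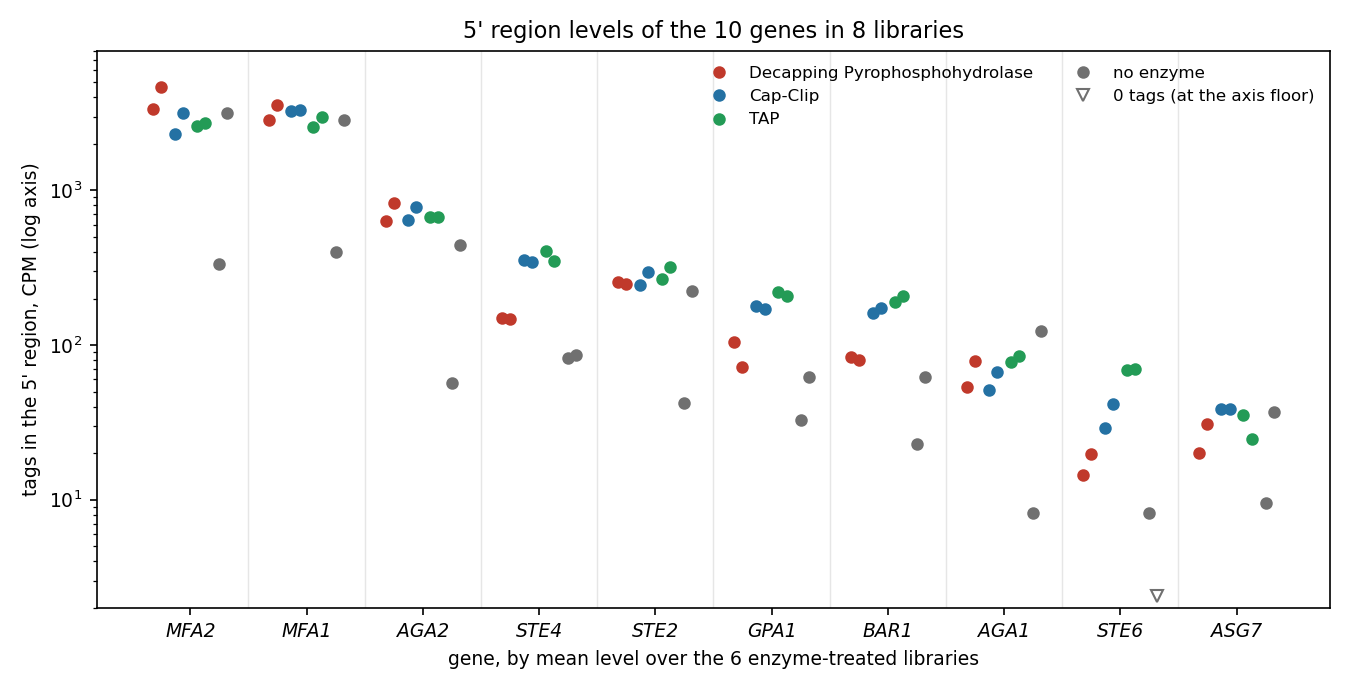
Tags of the 5′ region in CPM (log axis) for each of the 10 genes, with 1 point per library and the groups from left to right as Decapping Pyrophosphohydrolase, Cap-Clip, TAP and no enzyme (n = 2 each). STE6, BAR1, GPA1 and STE4 lie lower with Decapping Pyrophosphohydrolase than with TAP, while MFA2 lies higher.

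MFA1 had 2839 and 3549 CPM with Decapping Pyrophosphohydrolase, 3247 and 3298 CPM with Cap-Clip, 2588 and 3001 CPM with TAP, and 401 and 2837 CPM with no enzyme. The receptor gene STE2 had 254 and 250.04 CPM with Decapping Pyrophosphohydrolase, 246 and 295 CPM with Cap-Clip, 267 and 318 CPM with TAP, and 42.1 and 223 CPM with no enzyme. For both genes no-enzyme replicate 1 was far under every other library. ASG7 had 20.1 and 30.8 CPM with Decapping Pyrophosphohydrolase, 38.6 and 38.7 CPM with Cap-Clip, 35.5 and 24.6 CPM with TAP, and 9.51 and 37.2 CPM with no enzyme, where 37.2 CPM is 3 tags. AGA1 had 77.6 and 85.3 CPM with TAP and 8.15 and 124 CPM with no enzyme, which are 6 and 10 tags. Its highest value was thus in no-enzyme replicate 2, the shallowest library, and rests on those 10 tags.

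Against no enzyme, 0 of the 10 genes were called higher with Decapping Pyrophosphohydrolase, 5 with Cap-Clip and 4 with TAP, and 0 were called lower. Over all 5′ regions tested, 32.1%, 64.4% and 70.7% were called higher in those comparisons, 1.71%, 1.31% and 1.23% lower, and 33.8%, 65.8% and 72% in either direction. STE4 had 150 and 147 CPM with Decapping Pyrophosphohydrolase, 355 and 344 CPM with Cap-Clip, and 408 and 351 CPM with TAP, against 82.9 and 86.7 CPM with no enzyme. All 6 enzyme libraries were above both no-enzyme libraries for STE4, as they were for STE6, BAR1, STE2, GPA1 and AGA2. How many of all 5′ regions separate in this way is not given here. MFA2 had 3346 and 4640.5 CPM with Decapping Pyrophosphohydrolase, 2321 and 3175 CPM with Cap-Clip, and 2605 and 2740.5 CPM with TAP, against 333 and 3184 CPM with no enzyme. No-enzyme replicate 2 was as high as the enzyme libraries for MFA2, unlike replicate 1.

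With Cap-Clip, the log2 fold change over no enzyme was 2.38 for BAR1, 2.34 for STE6, 2.13 for GPA1, 2.05 for STE4 and 1.55 for ASG7, all called at an adjusted p under 0.05 (edgeR's quasi-likelihood test with Benjamini-Hochberg adjustment over all features). With TAP the called genes were STE6 (3.27), BAR1 (2.62), GPA1 (2.41) and STE4 (2.17). With Decapping Pyrophosphohydrolase 0 of the 10 had an unadjusted p under 0.05 in edgeR. With TMM scaling edgeR called 6 higher (STE6, BAR1, AGA1, ASG7, GPA1 and STE4), and DESeq2 called 7. Over all 5′ regions 4204 and 4029 were higher in those settings, against 1591 of 4964 tested without TMM. The same 6 and 7 genes were called with Cap-Clip and with TAP in those settings, where 4365 to 4448 regions were higher. When only the 2 groups compared were fitted, 0 were called with Decapping Pyrophosphohydrolase, and STE6 alone with Cap-Clip and with TAP. Over all 5′ regions 668, 1765 and 2279 were higher in those fits. The medians of the 10 genes were 1.18, 1.58 and 1.504 for Decapping Pyrophosphohydrolase, Cap-Clip and TAP, against 1.38, 1.98 and 2.09 over all 5′ regions. Without no-enzyme replicate 2, 9 of 10 were higher with Decapping Pyrophosphohydrolase (all but STE6, adjusted p = 0.0752 in edgeR), and all 10 with Cap-Clip and with TAP, where 63.2%, 82.6% and 85.7% of all 5′ regions were higher. Without no-enzyme replicate 1, only the shallow replicate 2 was left in that group. Fewer of all 5′ regions were then called in every comparison with no enzyme, and no more of the 10 genes than with both libraries. Without the first or second Cap-Clip library STE4 was not called for Cap-Clip (adjusted p = 0.0716 and 0.0733 in edgeR), without the second neither was GPA1 (0.0508), and without the first TAP library STE4 was not called for TAP (0.0731). ASG7 was not called without either Cap-Clip library (0.0775 and 0.0997), and with the replicate as a block ASG7 was lost as well (adjusted p = 0.0627 in edgeR).

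Between enzymes, the exporter STE6, the protease gene BAR1 and the G protein genes GPA1 and STE4 were lower with Decapping Pyrophosphohydrolase than with either other enzyme, and the a-factor gene MFA2 was higher than with either. STE6 had 14.5 and 19.8 CPM with Decapping Pyrophosphohydrolase, 29.2 and 41.8 CPM with Cap-Clip and 68.8 and 70.4 CPM with TAP. The 3 enzyme groups did not overlap for STE6, and Decapping Pyrophosphohydrolase was lowest. BAR1 had 83.3 and 79.6 CPM with Decapping Pyrophosphohydrolase, 161 and 174 CPM with Cap-Clip and 189.7 and 207 CPM with TAP. GPA1 had 104 and 71.9 CPM with Decapping Pyrophosphohydrolase, 179 and 172 CPM with Cap-Clip and 221 and 208 CPM with TAP. For BAR1, GPA1 and STE4 both Decapping Pyrophosphohydrolase libraries were under all Cap-Clip and TAP libraries. AGA2, in contrast, had 637 and 827 CPM with Decapping Pyrophosphohydrolase, 641 and 779 CPM with Cap-Clip and 672 and 671 CPM with TAP, so its groups overlapped.

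Decapping Pyrophosphohydrolase against TAP gave 3 of the 10 genes higher and 4 lower. Over all 5′ regions 12.8% were called higher and 40.3% lower, and the median change was 0.16 over the 10 genes and −0.36 over all regions. On the log2 scale STE6 changed by −1.55 (SE 0.20, adjusted p = 1.05e-06, edgeR), STE4 by −0.96 (SE 0.16, adjusted p = 3.89e-05), GPA1 by −0.92 (SE 0.17, adjusted p = 0.000156) and BAR1 by −0.89 (SE 0.16, adjusted p = 9.09e-05). MFA2 rose by 0.97 (SE 0.24, adjusted p = 0.00218, edgeR), MFA1 by 0.58 (SE 0.24, adjusted p = 0.0496) and AGA2 by 0.52 (SE 0.18, adjusted p = 0.0233). The call of MFA1 is at the threshold and is lost with the replicate as a block (adjusted p = 0.0523, edgeR). Without the second Decapping Pyrophosphohydrolase library, the first TAP library or the second TAP library it was not called either (adjusted p = 0.301, 0.357 and 0.0593 in edgeR), nor was AGA2 (0.210, 0.208 and 0.0788). STE2 (0.18), AGA1 (0.16) and ASG7 (0.15) were not called. These fold changes are relative to the bulk of features (TMM scaling); scaled by library totals instead, the 10 genes shift by a median of −0.39, only MFA2 is higher, the same 4 are lower, and STE2, AGA1 and ASG7 change sign. On that scaling 220 regions are called higher out of 3307 called, against 643 of 2671.

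Decapping Pyrophosphohydrolase against Cap-Clip gave 2 genes higher and 4 lower, where 10.1% of all 5′ regions were higher and 31.7% lower. MFA2 rose by 0.88 (SE 0.24, adjusted p = 0.00658, edgeR). AGA1 had 53.7 and 79.3 CPM with Decapping Pyrophosphohydrolase, while Cap-Clip gave 51.2 and 67.4 CPM; the libraries overlapped, and the fitted change of 0.51 passed the test (adjusted p = 0.0336, edgeR). AGA1 was not called without the second Decapping Pyrophosphohydrolase library or either Cap-Clip library (adjusted p = 0.611, 0.167 and 0.0938 in edgeR), nor was MFA2 without the second Decapping Pyrophosphohydrolase or first Cap-Clip library (0.104 and 0.0797). STE4 (−0.90), STE6 (−0.72), BAR1 (−0.71) and GPA1 (−0.68) fell, with adjusted p of 0.000169, 0.0100, 0.0017 and 0.00451. DESeq2 called neither STE6 (adjusted p = 0.0602) nor AGA1 (adjusted p = 0.191). STE6 was not called without the second Cap-Clip library (adjusted p = 0.298 in edgeR), nor was GPA1 without the second Decapping Pyrophosphohydrolase library (0.0781). MFA1 (0.29), AGA2 (0.38), STE2 (0.23) and ASG7 (−0.17) were not called, though AGA2 was called without the first Decapping Pyrophosphohydrolase library (adjusted p = 0.0333 in edgeR). Scaled by library totals the shift is −0.34, AGA1 is no longer called, MFA1 and STE2 change sign, and 180 of 2796 called regions are higher, against 508 of 2105. Both comparisons share the Decapping Pyrophosphohydrolase libraries, so their likeness is not independent.

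Between Cap-Clip and TAP, 0 of the 10 genes were called (edgeR), with 1 gene at an unadjusted p under 0.05 and 0 called by DESeq2. Over all 5′ regions 0.0199% were called higher and 0% lower. The 1 gene was STE6, at −0.84 (SE 0.17, adjusted p = 0.0935 in edgeR); with the replicate as a block it fell by 0.94 and was called (adjusted p = 0.00184), and with no filter on low counts it was called as well (adjusted p = 0.00336). The other 9 genes lay between −0.35 (AGA1) and 0.33 (ASG7), each with an SE of 0.15 to 0.24.

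The changes ran with coding length. The 10 coding sequences, each a single exon, measure 111 nt (MFA1), 117 nt (MFA2), 264 nt (AGA2), 630 nt (ASG7), 1272 nt (STE4), 1296 nt (STE2), 1419 nt (GPA1), 1764 nt (BAR1), 2178 nt (AGA1) and 3873 nt (STE6). Over 5036 5′ regions, Spearman's rho between coding length and the log2 fold change was −0.59 for Decapping Pyrophosphohydrolase against TAP, −0.46 for Decapping Pyrophosphohydrolase against Cap-Clip and −0.56 for Cap-Clip against TAP; genes of 1 set of libraries share depth and composition, so these are descriptions. For Decapping Pyrophosphohydrolase against TAP, the median change was 0.25 for genes up to 500 nt, −0.15 up to 1500 nt, −0.77 up to 3000 nt and −1.19 above. In that comparison MFA1, AGA2, ASG7, STE2, BAR1 and STE6 lay between the quartiles of their length class, MFA2 and AGA1 above them, and GPA1 and STE4 below them. STE2 and STE4 have nearly the same coding length and changed by 0.18 and −0.96. AGA1 (0.16) was above the upper quartile of its class at −0.35. The part of RNA length in these changes was not tested.

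**Figure D3:**
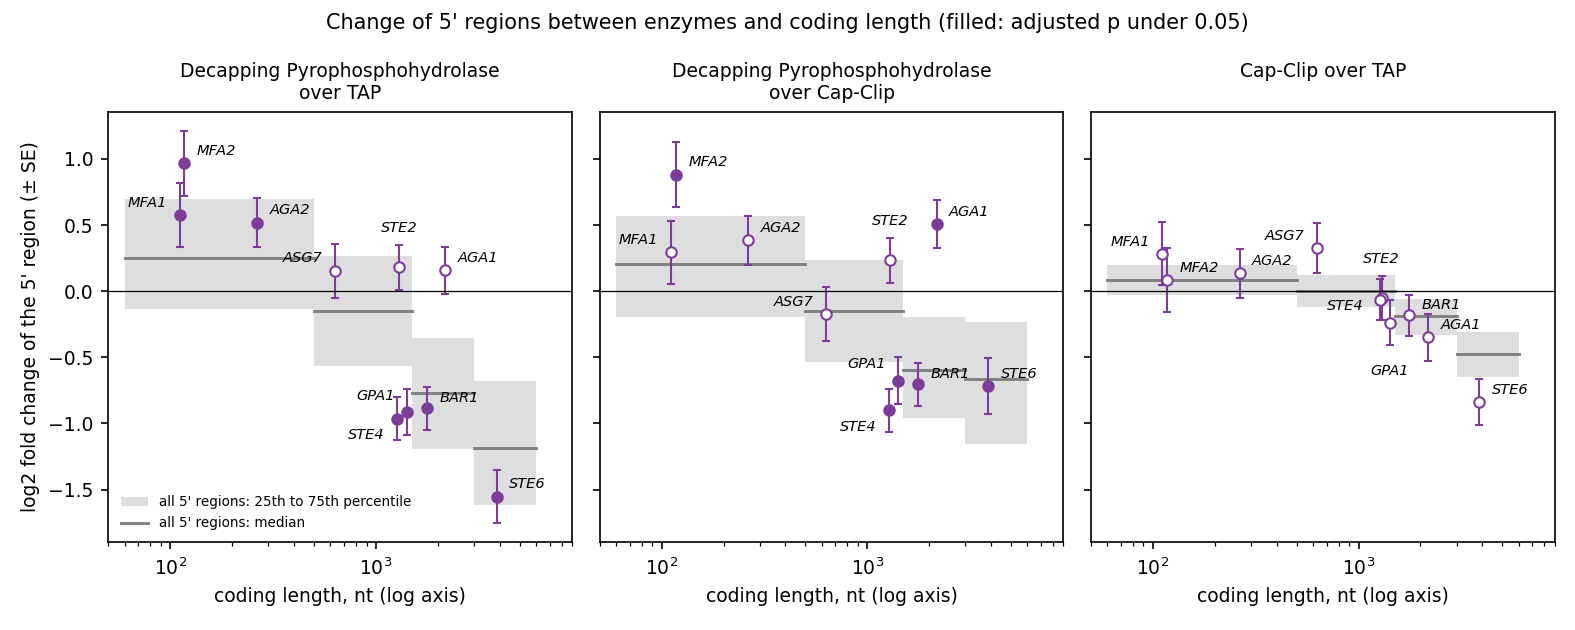
Log2 fold change of the 5′ region with its SE (vertical axis) against coding length in nt (log axis) for the 10 genes, in 1 panel per pair of enzymes. Filled points have an adjusted p under 0.05, and grey bars and lines give the quartiles and median of all 5′ regions by length class. STE6, the longest gene, is lowest in the comparisons with TAP, and AGA1 lies above its class between Decapping Pyrophosphohydrolase and TAP.

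The share of a gene's tags that fell in its 5′ region, rather than in the gene body, also differed. Of the sense tags on STE6, from its 5′ region to its end, 37.7% and 48.9% lay in the 5′ region with Decapping Pyrophosphohydrolase, 58.7% and 65.2% with Cap-Clip, 73.2% and 77.8% with TAP, and 1.46% and 0% with no enzyme. The enzyme groups did not overlap for STE6. For MFA1 the share was between 99.4% and 99.8% in all 6 enzyme libraries, against 71.4% and 97.4% with no enzyme. AGA1 had 67.1% and 61.1% with Decapping Pyrophosphohydrolase, 68.4% and 70.5% with Cap-Clip, 75.3% and 79.3% with TAP, and 2.21% and 45.5% with no enzyme. In no-enzyme replicate 2 STE6 had only 0 tags in the 5′ region and 8 in the body, and AGA1 had 10 and 12.

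The enzymes also differed in which start sites they reported within a gene. Start-site usage, the share of a gene's tags at each position, changed between Decapping Pyrophosphohydrolase and TAP in 5 of the 10 genes, where 28.7% of 3447 genes were called. The adjusted p was 5.08e-27 for AGA2, 1.33e-22 for MFA1, 7.57e-17 for MFA2, 3.30e-08 for STE4 and 0.00994 for ASG7 (edgeR's test of differential usage). The same 5 genes were called against Cap-Clip, where 26.9% of genes were called, with adjusted p of 7.49e-25, 9.16e-20, 6.93e-14, 2.42e-06 and 0.0210 in that order. On simulated counts 9.94% of the genes called against TAP and 7.74% of those called against Cap-Clip were false. The simulated spread was fixed and not taken from the libraries, so these shares need not hold here. ASG7 had the highest adjusted p of the 5 genes, so its call is the weakest. ASG7 was lost without the first Decapping Pyrophosphohydrolase library or the second TAP library (adjusted p = 0.109 and 0.0940 in edgeR), and against Cap-Clip without the second Decapping Pyrophosphohydrolase or second Cap-Clip library (0.0613 and 0.232). MFA2 and STE4 were also lost against Cap-Clip without its second library, while MFA1 and AGA2 were called in every alternative run. Between Cap-Clip and TAP 0 of the 10 genes were called, 0 had an unadjusted p under 0.05, and 0% of all genes were called, with 99 of 3447 at an unadjusted p under 0.05.

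Of 132 positions tested in the 10 genes, 20 were higher with Decapping Pyrophosphohydrolase than with TAP (7 each in MFA1 and AGA2, 4 in MFA2 and 1 each in ASG7 and STE4) and 2 were lower (AGA1 and AGA2). Over all genes 9.19% of positions were higher and 3.4% lower. Between Cap-Clip and TAP 0 positions of the 10 genes were called, against 0% higher and 0.0148% lower over all genes. Against Cap-Clip 18 were higher and 1 lower, where 8.95% and 2.74% of all positions were called, and the 18 were all among the 20. Of these 20 sites 5 had the pyrimidine-purine pair, against 99 of the 132 positions tested, and 11 began at a pyrimidine, against 16. Over all genes 19.9% of the 2491 higher sites had the pair, against 79.3% of 27095 positions tested. Of those higher sites over all genes 53.7% began at a pyrimidine, against 7.82% of the positions tested. Inside a coding sequence lay 3 of the 20 sites, against 5 of the 132 positions, and over all genes 7.79% of higher sites against 4.01% of positions.

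The 6 sites below, chosen after their values were seen, show the bases around sites whose usage was higher with Decapping Pyrophosphohydrolase than with TAP. The capital is the first base of the tags. They lie at chr4:1385141-1385170 (MFA1 at 20 nt), chr4:1385171-1385200 (MFA1, 10 nt inside), chr14:352371-352400 (MFA2 at 28 nt), chr7:436850-436879 (AGA2 at 31 nt, minus strand), chr7:436849-436878 (AGA2 at 30 nt, minus strand) and chr15:742795-742824 (STE4 at 100 nt), the others on the plus strand.
MFA1, 20 nt before the start codon: taaaaccaaaataagTacaaagccatcgaa
MFA1, 10 nt inside the coding sequence: tagaaatgcaaccatCtaccgctaccgccg
MFA2, 28 nt before the start codon: ccagcgagctatcatCttcatacaacaata
AGA2, 31 nt before the start codon: cttgtgtgccaaaatAttatacctacttca
AGA2, 30 nt before the start codon: ttgtgtgccaaaataTtatacctacttcat
STE4, 100 nt before the start codon: caataggccagaattAttggaaggaaagag
The MFA1 site at 20 nt had 38.0 and 39.4 CPM with Decapping Pyrophosphohydrolase, 1.58 and 4.13 CPM with Cap-Clip and 2.14 and 0.572 CPM with TAP. With no enzyme the same site had 12.2 and 12.4 CPM, which are 9 tags and 1 tag. This MFA1 site begins at a T next to the A of the MFA1 site at 19 nt. Usage of the site at 20 nt rose by 4.24 on the log2 scale against TAP (adjusted p = 2.51e-16, edgeR) and by 3.49 against Cap-Clip. The MFA1 site 10 nt inside the coding sequence had 12.9 and 16.4 CPM with Decapping Pyrophosphohydrolase and 0 and 0.354 CPM with Cap-Clip, and no tag with TAP or with no enzyme. The MFA2 site at 28 nt had 30.2 and 33.6 CPM with Decapping Pyrophosphohydrolase, 0 and 0.472 CPM with Cap-Clip and 0.372 and 0 CPM with TAP, against 1.36 and 0 CPM with no enzyme. Neither of these sites reached the Decapping Pyrophosphohydrolase level in a Cap-Clip or TAP library or in no-enzyme replicate 1, while 0 tags in no-enzyme replicate 2 allow up to 37.2 CPM. The AGA2 site at 31 nt had 29.1 and 47.7 CPM with Decapping Pyrophosphohydrolase, 5.52 and 8.38 CPM with Cap-Clip and 6.24 and 5.15 CPM with TAP, against 5.43 and 37.2 CPM with no enzyme; its usage rose by 2.71 against TAP. The STE4 site at 100 nt had 12.9 and 8.05 CPM with Decapping Pyrophosphohydrolase, 5.52 and 3.19 CPM with Cap-Clip and 3.17 and 3.43 CPM with TAP, against 0 and 12.4 CPM with no enzyme, where 12.4 CPM is 1 tag. At these AGA2 and STE4 sites no-enzyme replicate 2, with 3 tags and 1 tag, was above 1 of the 2 Decapping Pyrophosphohydrolase libraries. With the replicate as a block, 3 of the 20 sites were no longer called: MFA1 at 22 and 18 nt and AGA2 at 53 nt (adjusted p = 0.0778, 0.173 and 0.0695 in edgeR).

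Together the 7 AGA2 sites took 12.2% and 13.1% of AGA2 tags with Decapping Pyrophosphohydrolase, 2.71% and 2.79% with Cap-Clip, 2.51% and 2.05% with TAP, and 11.9% and 11.1% with no enzyme. The 7 MFA1 sites took 3.74% and 5.26% with Decapping Pyrophosphohydrolase, 1.09% and 1.54% with Cap-Clip, 1.48% and 1.35% with TAP, and 9.15% and 4.80% with no enzyme. For MFA1 and AGA2 the Decapping Pyrophosphohydrolase and no-enzyme libraries were above all Cap-Clip and TAP libraries. The whole AGA2 region had only 42 and 36 tags with no enzyme. The 4 MFA2 sites took 1.74% and 1.78% with Decapping Pyrophosphohydrolase, 0.0679% and 0.0743% with Cap-Clip, 0.0608% and 0.0627% with TAP, and 1.22% and 0% with no enzyme. These shares describe sites picked for their difference, and carry no test.

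**Figure D4:**
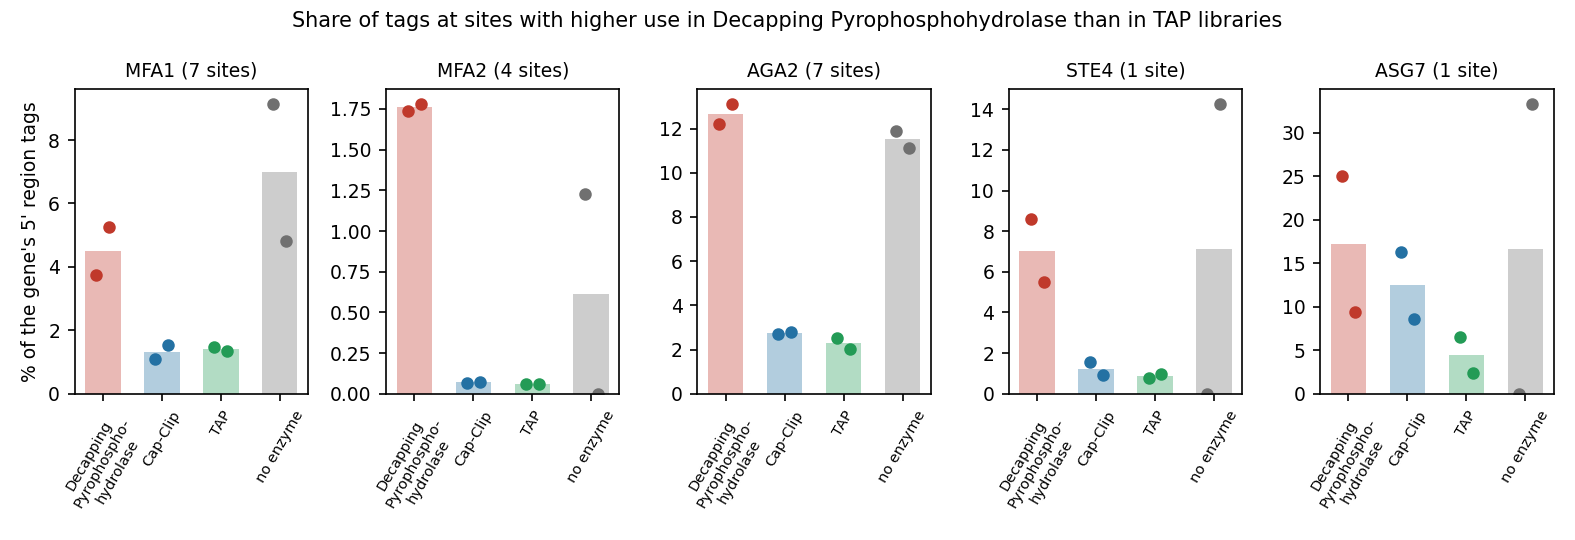
Share of each gene's tags (percent, vertical axis) at the sites whose usage was higher with Decapping Pyrophosphohydrolase than with TAP, for the 5 genes that have such sites, with 1 point per library and n = 2 libraries per group. The AGA2 share is 12.2% and 13.1% with Decapping Pyrophosphohydrolase and under 3% with Cap-Clip and TAP.

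Tags that began at a pyrimidine were also summed over each gene, whether or not their site was called. In AGA2 they were 7.11% and 9.66% of tags with Decapping Pyrophosphohydrolase, 0.984% and 1.48% with Cap-Clip, 1.68% and 0.853% with TAP, and 28.6% and 11.1% with no enzyme. In GPA1, whose start-site usage was not called, they were 2.15% and 3.20% with Decapping Pyrophosphohydrolase, 0% and 0.822% with Cap-Clip, 0.886% and 0.826% with TAP, and 33.3% and 20% with no enzyme. In STE4 they were 5.97% and 5.87% with Decapping Pyrophosphohydrolase, 2% and 1.68% with Cap-Clip, 1.39% and 1.79% with TAP, and 34.4% and 0% with no enzyme. The no-enzyme libraries lay apart from each other in STE4, and replicate 2 was at 0% in BAR1, AGA1 and ASG7 as well. These no-enzyme shares rest on few tags: 42 and 36 in AGA2, 24 and 5 in GPA1, and 61 and 7 in STE4. In replicate 2 BAR1 had 5 tags, AGA1 10 and ASG7 3. MFA1 and MFA2 had 229 and 257 tags in no-enzyme replicate 2, of which 1.75% and 2.33% began at a pyrimidine. Both were under the Decapping Pyrophosphohydrolase shares, 2.87% and 3.58% in MFA1 and 3.02% and 4.04% in MFA2. In no-enzyme replicate 1 MFA1 had 23.1% and MFA2 17.6%, above those shares. STE6 had 3.85% and 5.80% with Decapping Pyrophosphohydrolase, 5.41% and 2.54% with Cap-Clip and 2.98% and 6.5% with TAP, which overlapped. With 2 libraries a group, an exact permutation test of these shares cannot go under 0.333.

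The rest of the pheromone pathway was read from lists of other genes. Of 18 signalling genes tested between Decapping Pyrophosphohydrolase and TAP, 1 was higher and 5 were lower, with a median of −0.35 against −0.36 over all 5′ regions. Their shares, 1 and 5 of 18, stand beside the 12.8% higher and 40.3% lower over all 5′ regions. On the log2 scale the lower genes were the MAP kinase kinase kinase STE11 (−2.09), FAR1 (−1.298), an inhibitor of the cell-cycle kinase, SST2 (−1.03), the regulator that quiets the G protein, the kinase STE20 (−0.71) and the polarity scaffold BEM1 (−0.48), all called by edgeR. STE11 had 5.03 and 2.59 CPM with Decapping Pyrophosphohydrolase, 11.8 and 14.5 CPM with Cap-Clip and 19.6 and 20.6 CPM with TAP. FAR1 had 26.3 and 28.7 CPM with Decapping Pyrophosphohydrolase, 81.2 and 78.2 CPM with Cap-Clip and 97.3 and 81.3 CPM with TAP. Both genes were lower in each Decapping Pyrophosphohydrolase library than in any other enzyme library. Against Cap-Clip 0 were higher and 3 lower, STE11 (−1.62), FAR1 (−1.16) and SST2 (−0.68), where 10.1% of all 5′ regions were higher and 31.7% lower. STE18 (87.0 CPM), the γ subunit that pairs with STE4, and FUS3 (77.8 CPM), a MAP kinase, were among the 3 highest of that list, as means over the 6 enzyme libraries.

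Of 14 pheromone-induced and cell-fusion genes, 12 were tested between enzymes, of which 1 rose (FIG1, 0.82) and 4 fell with Decapping Pyrophosphohydrolase against TAP, with a median of −0.17, beside 12.8% higher and 40.3% lower over all 5′ regions. Those that fell were the kinesin KAR3 (−1.67), its partner CIK1 (−1.31), PRM6 (−1.09) and PRM1 (−0.77), which acts in membrane fusion. Against Cap-Clip KAR3 (−1.79), PRM6 (−1.25) and CIK1 (−1.07) fell and none rose, beside 31.7% lower and 10.1% higher over all 5′ regions. KAR4 (48.7 CPM), a transcription factor, PRM5 (43.5 CPM) and PRM4 (28.0 CPM) were highest in that list. Of 7 a-factor maturation genes, STE24, a protease that trims the precursor, rose by 0.92 against TAP and 0.72 against Cap-Clip. STE23, another protease of the pathway, fell (−0.95 against TAP and −0.55 against Cap-Clip). The list thus had 1 of 7 higher and 1 of 7 lower in each comparison, beside 12.8% and 40.3% of all 5′ regions against TAP and 10.1% and 31.7% against Cap-Clip. The list's median was 0.24 against TAP, and STE14 (65.3 CPM), the methyltransferase, STE24 (57.1 CPM) and RAM2 (55.4 CPM), a subunit of farnesyltransferase, were highest. Between Cap-Clip and TAP 0 genes of the 3 lists were called by edgeR, with 3, 1 and 1 at an unadjusted p under 0.05.

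Against no enzyme, signalling genes were higher in 4 of 18 with Decapping Pyrophosphohydrolase, 9 of 18 with Cap-Clip and 12 of 18 with TAP. The counts were 2, 5 and 6 of 11 for induced and fusion genes and 3, 6 and 6 of 7 for maturation genes, beside 32.1%, 64.4% and 70.7% of all 5′ regions. Without no-enzyme replicate 2 the counts were 8, 14 and 15 of 18 signalling genes, 4, 7 and 7 of 11 induced and fusion genes, and 5, 7 and 7 of 7 maturation genes, beside 63.2%, 82.6% and 85.7% of all 5′ regions. The α-specific genes check the mating type on the label. MF(ALPHA)1 (0.571 CPM), MF(ALPHA)2 (1.66 CPM), STE3 (0.311 CPM) and SAG1 (1.92 CPM) were near 0 as means over the 6 enzyme libraries and did not pass the filter for a test.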

How the data were processed

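The authors deposited 1 table of raw counts: the number of tags (5′ ends of reads) at each genome position and strand, in 1 column for each of the 8 libraries. Per the labels, oligonucleotides with a random barcode of 8 nt were ligated after decapping, poly(A) RNA was selected and random-primed, and 50-nt reads were sequenced. The submitters' processing notes name Novoalign and the R64 (sacCer3) build. Whether tags with the same barcode were collapsed is not given in the sources used here, so tags may not all be separate molecules and the limits given for 0 tags (3 tags of the library) cover counting error only. The reference used here has the same build. The 10 genes, the lists and the tests were chosen with earlier results of these data known.

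Tags were summed over 5′ regions (400 nt upstream to 50 nt inside) and gene bodies of 6002 genes. edgeR 4.0.16 (R 4.3.3, limma 3.58.1) was run as its quasi-likelihood test after filterByExpr with a minimum count of 10: on all 8 libraries scaled by library totals against no enzyme, and on the 6 enzyme libraries with TMM between enzymes. Start-site usage was tested with edgeR's diffSpliceDGE on single positions. P-values were 2-sided and adjusted (Benjamini-Hochberg) over all features tested, with a threshold of 0.05. DESeq2 1.42.0 was an alternative; other alternatives changed scaling, filters, region size, libraries and the replicate block. The 10 genes were all named; from other lists the 3 genes highest in CPM and at most 5 called per list and comparison were named, and all α-specific genes. The values of 1 gene of the signalling list are not reported here. A start site was named if it was the strongest, or among 4 further ones with at least 5% of the gene's tags.

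The replicate numbers pair the libraries because each replicate's RNA was divided among the 4 treatments, per the design text. Deviations of same-numbered libraries from their group means correlated by −0.0902 to 0.093 between groups over 9281 features. Same-group libraries differed beyond sampling noise (chi-square per degree of freedom 8.47 to 13.7), so none was counted as a repeat of another. Simulated data had 4-fold changes in 200 features. There 92.0% to 98.0% of changed 5′ regions and 70.5% to 72.5% of changed usage genes were recovered. Of the calls, 3.54% to 5.37% and 7.74% to 11.3% were false. All simulated libraries were drawn from common means with a fixed spread, so the difference between the no-enzyme libraries was not simulated. These rates therefore cannot be carried over to the comparisons with no enzyme.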

Additional observations from a re-analysis of the deposited data

How the results depend on the processing

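The counts over all 5′ regions depended most on the no-enzyme libraries and on scaling. For Decapping Pyrophosphohydrolase against no enzyme, 1676 regions were called, with 4215 under TMM scaling, 4035 in DESeq2, 721 when only those groups were fitted, and 49 to 3426 when 1 library was left out. Cap-Clip against no enzyme gave 3264, with 1811 when only those groups were fitted and 507 to 4340 with 1 library left out. TAP against no enzyme gave 3572, with 2325 and 693 to 4497 in the same settings. Decapping Pyrophosphohydrolase against TAP gave 2671, with 1586 when all 8 libraries were fitted and 1610 to 2900 with 1 left out. Decapping Pyrophosphohydrolase against Cap-Clip gave 2105, with 1376 in DESeq2, 939 with all 8 libraries and 1236 to 2358 with 1 left out. Cap-Clip against TAP gave 1, with 2 by library totals, 42 with no filter, 13 with the replicate block, 0 in DESeq2, with 200 nt upstream, with positions of at least 2 tags or with all 8 libraries, and 0 to 16 with 1 left out. Genes called for start-site usage were 988 (618 to 1128 with 1 library left out) against TAP and 928 (553 to 1077) against Cap-Clip for Decapping Pyrophosphohydrolase, and 0 between Cap-Clip and TAP (1 with the replicate block, 0 to 4 with 1 left out). The replicate block changed no other call of the 10 genes than those given above.

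Some small fold changes changed sign. By library totals, Decapping Pyrophosphohydrolase against TAP was −0.21 for STE2, −0.26 for AGA1 and −0.265 for ASG7, and against Cap-Clip −0.0348 for MFA1 and −0.11 for STE2. With 1 library left out, log2 fold changes against no enzyme ranged from −0.87 to 3.05 (AGA1) and −0.50 to 1.47 (ASG7) for Decapping Pyrophosphohydrolase, from −0.21 to 3.05 (MFA2) and −1.02 to 2.90 (AGA1) for Cap-Clip, and from −0.0224 to 2.80 (MFA1), −0.25 to 3.01 (MFA2), −0.61 to 3.31 (AGA1) and −0.23 to 1.73 (ASG7) for TAP. Decapping Pyrophosphohydrolase against TAP ranged from −0.0168 to 0.37 (STE2), −0.17 to 0.35 (AGA1, with −0.01 without TAP replicate 1) and −0.26 to 0.42 (ASG7), and against Cap-Clip from −0.56 to 0.0222 (ASG7). Cap-Clip against TAP ranged from −0.0438 to 0.21 (MFA2, with −0.03 without TAP replicate 1), −0.26 to 0.16 (STE2) and −0.20 to 0.0676 (STE4). Site usage ranged from −0.10 to 1.22 (MFA1 at 18 nt, against TAP), −0.0379 to 1.27 (the same site, against Cap-Clip) and −2.41 to 0.69 (AGA1 at 34 nt, against Cap-Clip). The causes were not tested.

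Of 90 alternative median leaders, 89 were unchanged or moved by no more than the SD between libraries; ASG7 moved to 18.8 nt when positions needed at least 2 tags. Usage of STE2 was also called against both enzymes with a minimum count of 3, and that of BAR1 against TAP. In bins of 10 nt MFA1, AGA2 and STE4 were called against Cap-Clip. With all 8 libraries fitted, only STE6 was called between Decapping Pyrophosphohydrolase and TAP among the 10, and 0 against Cap-Clip. The shallow no-enzyme replicate 2 limits what can be read at single sites there.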
